A study of Mus musculus with 13 samples.

Results

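The 89 genes described here are the protein-coding ribosomal protein genes of the mouse, chosen by symbol alone: Rpl or Rps followed by a digit, together with Rpsa, Rplp0, Rplp1 and Rplp2, without pseudogenes and without the S6 kinases. They were 89 of 21887 protein-coding genes in the gene table, and 59 of them had a peak assigned to them in at least 1 of the 7 deposited peak lists. The study mapped the glucocorticoid receptor (GR, a hormone-activated transcription factor) with ChIP-seq, the sequencing of DNA that an antibody pulls down with a protein, in embryonic fibroblasts of the mouse, primary connective tissue cells from C57BL/6 embryos. The question its title names is which functions of the receptor need direct binding to DNA.

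The 13 libraries, all made with 1 antibody against the receptor, formed 5 groups, all from male embryos taken at embryonic day 13.5 and cultured for 7 days. Dexamethasone (Dex, a synthetic glucocorticoid) was given at 1 µM for 16 h in every group, and lipopolysaccharide (LPS, a bacterial product that starts inflammatory signalling) for 3 h at 100 ng/µl, as the labels give the dose, in 3 of them. Under Dex with LPS there were 4 libraries of GR Zn/Zn mutant cells, whose receptor is altered in a zinc finger of the DNA-binding domain, 2 of GR knockout cells and 3 of wild-type cells. Under Dex alone there were 2 libraries of mutant cells and 2 of wild-type cells. Whether the libraries of a Dex group stem from separate cultures is not in the labels.

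The Dex+LPS libraries reached the deposited lists merged by genotype and, per the file names, with the peaks of knockout cells taken out. Every peak in them belongs to 1 of 3 classes: mutant-specific (2187 peaks), shared by both genotypes (3533) or wild-type-specific (18953). The mutant list below is the mutant-specific and shared classes together, and the wild-type list is the shared and wild-type-specific classes together. With 1 merged list a genotype there is no spread between replicates, so the counts below carry no test. The lists hold positions without heights or read counts, so the depth is unknown, and a longer list can reflect more reads or more libraries. Here the longer wild-type list came from 3 libraries and the shorter mutant list from 4. Peaks measure no expression, so no marker gene can check the cell type here.

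Ribosomal proteins assemble with ribosomal RNA into the small subunit, which reads the messenger RNA, and the large subunit, which joins amino acids. Their genes are short, are expressed at high level in growing cells, and typically begin transcription within a tract of pyrimidines, the 5′ terminal oligopyrimidine motif, which ties the translation of their messages to mTOR. Glucocorticoids are known to slow growth in several tissues and to favour it in others, and the receptor reaches DNA either by binding its palindromic element itself or through other factors.

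The stretches below are the start regions of 7 members, 3 with a mutant-specific peak, 2 with a shared and 2 with a wild-type-specific one, shown so that the bases under the peaks can be read directly. Each runs 5′ to 3′ along the gene's strand from 250 bases before to 50 after the start, which is base 251, from RefSeq (GRCm38.p6), with the bases that lie inside the 200 bp peak in capitals. The first 3 lie at chr17:33955616-33955915 (Rps18, minus strand), chr10:128626457-128626756 (Rps26, minus strand) and chr11:68901316-68901615 (Rpl26, plus strand), and their peaks cover 72, 61 and 19 of the bases shown. The shared examples lie at chr1:72711010-72711309 (Rpl37a, plus strand) and chr17:24719813-24720112 (Rps2, plus strand), with 189 and 178 bases under the peak. The wild-type-specific examples lie at chr2:39005082-39005381 (Rpl35, minus strand) and chr7:3703791-3704090 (Rps9, plus strand), with 200 and 95 bases under the peak.
Rps18: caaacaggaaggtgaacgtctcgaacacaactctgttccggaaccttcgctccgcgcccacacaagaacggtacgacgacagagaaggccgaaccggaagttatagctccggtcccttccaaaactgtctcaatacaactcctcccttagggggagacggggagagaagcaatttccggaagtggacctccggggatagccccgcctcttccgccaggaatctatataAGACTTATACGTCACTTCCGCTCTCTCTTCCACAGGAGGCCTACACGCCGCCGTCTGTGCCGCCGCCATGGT
Rps26: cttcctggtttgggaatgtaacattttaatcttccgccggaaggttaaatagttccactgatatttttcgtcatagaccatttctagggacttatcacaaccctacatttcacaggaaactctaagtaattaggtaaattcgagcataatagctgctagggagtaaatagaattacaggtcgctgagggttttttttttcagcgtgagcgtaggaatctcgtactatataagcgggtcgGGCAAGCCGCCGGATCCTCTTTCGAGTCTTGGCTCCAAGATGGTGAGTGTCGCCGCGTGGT
Rpl26: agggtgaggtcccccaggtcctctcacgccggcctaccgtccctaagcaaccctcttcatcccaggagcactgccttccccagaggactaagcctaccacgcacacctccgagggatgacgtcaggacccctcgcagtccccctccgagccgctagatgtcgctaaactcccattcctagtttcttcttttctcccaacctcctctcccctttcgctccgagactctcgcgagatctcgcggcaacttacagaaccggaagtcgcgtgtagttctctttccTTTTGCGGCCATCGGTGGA
Rpl37a: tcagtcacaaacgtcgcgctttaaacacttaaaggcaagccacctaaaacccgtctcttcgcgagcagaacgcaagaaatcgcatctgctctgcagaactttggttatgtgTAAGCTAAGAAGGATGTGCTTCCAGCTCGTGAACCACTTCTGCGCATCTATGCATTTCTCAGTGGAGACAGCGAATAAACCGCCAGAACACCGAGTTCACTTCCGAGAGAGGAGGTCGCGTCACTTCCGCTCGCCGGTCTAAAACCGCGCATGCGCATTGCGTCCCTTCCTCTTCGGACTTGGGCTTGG
Rps2: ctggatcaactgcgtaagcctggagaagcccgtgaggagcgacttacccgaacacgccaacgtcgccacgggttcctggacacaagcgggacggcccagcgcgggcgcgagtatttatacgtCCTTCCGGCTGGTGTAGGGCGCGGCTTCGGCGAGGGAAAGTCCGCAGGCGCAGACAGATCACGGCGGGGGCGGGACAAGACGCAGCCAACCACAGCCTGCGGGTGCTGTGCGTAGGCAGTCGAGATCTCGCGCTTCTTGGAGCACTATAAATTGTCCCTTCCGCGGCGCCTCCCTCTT
Rpl35: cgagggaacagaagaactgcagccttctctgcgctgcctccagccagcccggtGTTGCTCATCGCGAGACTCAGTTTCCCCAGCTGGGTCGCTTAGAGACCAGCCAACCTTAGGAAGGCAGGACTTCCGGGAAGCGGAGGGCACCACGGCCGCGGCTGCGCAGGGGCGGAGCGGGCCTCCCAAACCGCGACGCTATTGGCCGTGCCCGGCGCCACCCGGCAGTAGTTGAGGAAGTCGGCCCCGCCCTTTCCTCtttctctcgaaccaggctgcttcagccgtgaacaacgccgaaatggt
Rps9: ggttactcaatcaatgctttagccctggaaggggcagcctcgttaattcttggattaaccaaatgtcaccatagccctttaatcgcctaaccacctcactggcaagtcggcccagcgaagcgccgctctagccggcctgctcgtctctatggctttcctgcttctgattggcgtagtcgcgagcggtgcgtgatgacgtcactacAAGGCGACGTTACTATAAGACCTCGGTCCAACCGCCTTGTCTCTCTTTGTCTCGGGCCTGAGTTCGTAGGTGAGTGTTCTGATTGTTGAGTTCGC

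Under Dex and LPS, receptor peaks were assigned to most ribosomal protein genes, and the wild-type list named more of them than the mutant list. At least 1 peak of any class was assigned to 59 of the 89 members (66.3%), beside 34.4% of all protein-coding genes. The mutant list named 27 members (30.3%, beside 12.6% of all protein-coding genes) and the wild-type list 54 (60.7%, beside 33.0%). By class, 11 members had a mutant-specific peak (12.4%, beside 5.36%), 19 a shared peak (21.3%, beside 9.37%) and 48 a wild-type-specific peak (53.9%, beside 30.6%). A total of 111 peaks lay behind these counts: 14 mutant-specific, 25 shared and 72 wild-type-specific. Of the members with a peak, 37 had exactly 1 and 22 had more than 1. The mutant-specific count rested on few genes: it was 7 without chromosomes 10 to 14, 7 with peaks within 5 kb of the start and 6 with peaks centred in the gene body. Under that last count shared peaks were left to 11 members and wild-type-specific ones to 31.

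The peaks gathered at the gene start. Within 1 kb of the start, 46 members had a peak of any class (51.7%), against 9.90% of all protein-coding genes. There were 6 with a mutant-specific start peak (6.74%, beside 1.30%), 13 with a shared one (14.6%, beside 2.00%) and 28 with a wild-type-specific one (31.5%, beside 7.00%). In the mutant list 18 members had a start peak (20.2%, beside 3.22%) and in the wild-type list 41 (46.1%, beside 8.78%). Members thus stood above the protein-coding share in all 3 classes, as counts without a test.

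Most of these peaks were centred just inside the gene. Of the 47 start peaks, 41 (87.2%) had their centre downstream of the start, against 64.4% of the 2342 start peaks of other protein-coding genes. In the first 300 bases of the gene lay 38 centres (80.9%), against 41.4% of the others. The median position was 133 bp inside, against 109.5 bp for the others, whose centres were spread more widely on both sides. By class the median was 138 bp for the 6 mutant-specific, 77 bp for the 13 shared and 168 bp for the 28 wild-type-specific start peaks. In 11 of the 47 cases another gene also began within 500 bp, so the peak could equally be counted for that neighbour.

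**Figure D1:**
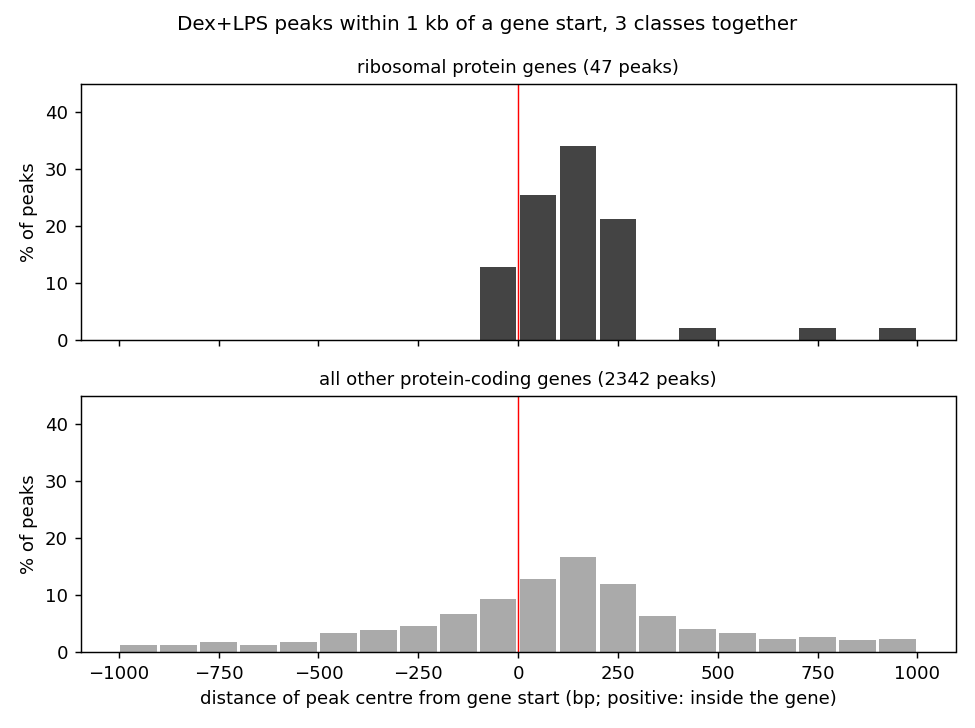
Histogram of the distance in bp from the gene start to the peak centre, within 1 kb, as a percent of start peaks, for the 47 peaks of ribosomal protein genes and the 2342 of other protein-coding genes. Of the member peaks 80.9% fall between 1 and 300 bp inside the gene, against 41.4% of the others.

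The mutant-specific start peaks belonged to 6 members, 4 of the small subunit and 2 of the large. Rps26, a small-subunit protein at the exit of the messenger RNA channel and a gene mutated in Diamond-Blackfan anaemia, had its peak centre 88 bp inside the gene, which spans chr10:128624529-128626506. Rps18, a protein of the small subunit's head on chr17:33951998-33955665, had its peak at 53 bp. Both peaks reach over the start itself, as the capitals in the stretches above show. Rpl26, a large-subunit protein also known to bind the p53 message, had its peak at 130 bp in chr11:68901566-68904534. Rpl5, which carries 5S ribosomal RNA and binds the p53 regulator Mdm2, had its peak at 146 bp in chr5:107900508-107909005. These 4 lay close to the start. Farther in was Rps20, of the small subunit's head, with its peak at 717 bp.

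For 5 of these 6, all but Rps20, no peak in the wild-type list was assigned to the gene. The nearest wild-type peak was 45874 bp from the mutant peak for Rps26, 38015 bp for Rpl5 and 29792 bp for Rpl26. Rps18 differed: a wild-type-specific peak assigned to its neighbour Vps52 was centred 571 bp from the mutant peak, so wild-type cells had a peak beside this start as well. The lists do not say how near a peak of the other genotype came to the calling threshold, and a weak wild-type peak at these starts was not analysed here. Over all 14 mutant-specific member peaks, 5 had a wild-type peak within 1 kb and 4 had none within 10 kb, with a median distance of 2.90 kb. No share over all mutant-specific peaks stands beside these counts, so they describe the members alone.

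Shared start peaks belonged to 13 members from both subunits. Rps6, the small-subunit protein that S6 kinase phosphorylates downstream of mTOR, had its centre at -15 bp. Rps2, near the entry of the messenger RNA channel, had it at -29 bp, and Rpl37a, a zinc-binding protein of the large subunit, at -40 bp, which is why nearly their whole peaks show as capitals above. Rps28 lay at -6 bp, Rpl4 at 27 bp, Rps12 at 45 bp and Rps19, the gene most often mutated in Diamond-Blackfan anaemia, at 77 bp. Farther in were Rpl41, the smallest ribosomal protein, at 82 bp, Rpl12 at 86 bp and Rpl23 at 133 bp. Rplp1, a protein of the stalk that recruits elongation factors, lay at 182 bp, Rpl27a at 189 bp and Rps20 at 203 bp. All 13 centres thus lay between -40 and 203 bp.

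Wild-type-specific start peaks belonged to 28 members from both subunits, 18 of them with the centre within 200 bp of the start. The farthest upstream was Rpl35 at -97 bp, where the whole peak lies in the stretch shown above, followed by Rpl7 at -3 bp. Rps9 lay at 58 bp, Rps13 at 68, Rps10 at 80, Rpl17 at 91 and Rplp2 at 96 bp. Rpl7a and Rpl32 both lay at 101 bp and Rps25 at 108 bp. All of these centres lay within 108 bp of the start. Rpl10, an X-linked gene whose protein is among the last to join the large subunit, lay at 130 bp, Rps7 at 139, Rpl35a at 155, Rps3a1 at 166, Rps27 at 170 and Rps3 at 171 bp. Rpsa, also known as the laminin receptor, lay at 174 bp, Rpl38, which is known in mice for its part in translating Hox messages, at 185 bp and Rplp0, the base of the stalk, at 201 bp. Rpl27 lay at 221, Rps23 at 224, Rpl24 at 235, Rpl23a at 238, Rpl28 at 241, Rpl36 at 243, Rpl9 at 257 and Rpl13 at 288 bp. The farthest inside was Rpl21 at 404 bp. None of the 28 had a mutant peak within 1 kb, 19 had none within 10 kb, and the median distance to the nearest mutant peak was 74.7 kb. These distances were taken for members only, and the mutant list is the shorter one. Without the share over all wild-type-specific peaks, they do not set members apart.

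**Figure D2:**
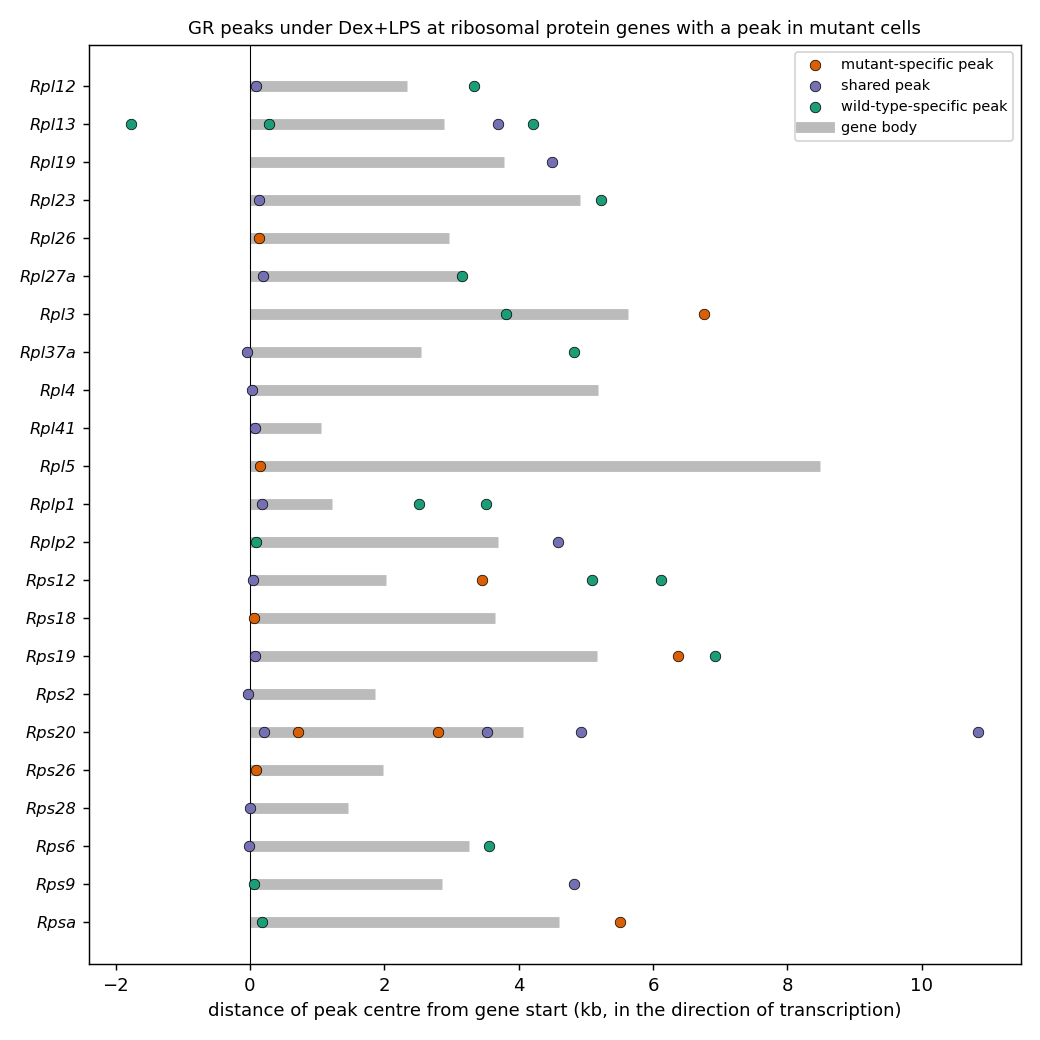
Map of 23 ribosomal protein genes with a mutant-specific or shared peak nearby, aligned at the gene start, with the gene body in grey and each peak centre as a point coloured by class against the distance from the start in kb along the horizontal axis. Centres sit at the start and again past the gene's end, as at Rps19, Rps12 and Rps20.

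A second gathering of peaks lay just past the gene's end; it was examined after the values had been seen. Between 1 bp and 2 kb past the end lay 20 peaks of 18 members (20.2%), against 1.94% of all protein-coding genes with such a peak. By class there were 4 members with a mutant-specific peak (4.49%, beside 0.461%), 5 with a shared one (5.62%, beside 0.388%) and 11 with a wild-type-specific one (12.4%, beside 1.19%). The mutant list had 9 such members (10.1%, beside 0.818%) and the wild-type list 15 (16.9%, beside 1.53%). The distance past the end ran from 158 to 1956 bp with a median of 967.5 bp, and 14 members had a peak at both ends. For 7 of the 20 the nearest start in the RefSeq table was that of another gene, and for 1 of these, at Rpl3l, that start (Msrb1) lay within 500 bp. A peak at the start or just past the end was found for 50 members, and 9 had peaks elsewhere only. The counts of 14 and 50 members have no share of all protein-coding genes beside them.

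Among the mutant-specific peaks past the end were Rpsa at 903 bp, Rpl3, a core protein of the peptidyl transferase centre, at 1134 bp, Rps19 at 1210 bp and Rps12 at 1428 bp. At Rps19 a wild-type-specific peak followed at 1747 bp, its centre 537 bp from the mutant-specific one. The shared ones were Rpl19 at 712 bp, Rpl13 at 791 bp, Rps20 at 856 bp, Rplp2 at 894 bp and Rps9 at 1956 bp. Rpl13, Rplp2 and Rps9 therefore had a wild-type-specific peak at the start and a shared one past the end, and Rpsa a wild-type-specific one at the start and a mutant-specific one past the end. The wild-type-specific ones began with Rpl3l, the muscle relative of Rpl3, at 158 bp, Rps6 at 298 bp and Rpl23 at 306 bp. They went on with Rps10 at 801, Rpl27 at 933, Rpl12 at 1002, Rps15a at 1079, Rpl9 at 1175, Rplp1 at 1291 and Rpl13 at 1314 bp, and ended with Rps19. Within 1 kb past the end, 1 member had a mutant-specific peak, 4 a shared and 5 a wild-type-specific one, so the counts depend on this window. For the window of 1 kb no share of all protein-coding genes is given.

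Set out by place, the peaks of ribosomal protein genes lay mostly at the start and the end of the gene, and those of other protein-coding genes mostly inside or outside it. Start peaks were 42.3% of the 111 member peaks, against 11.1% of 21025 others, and peaks just past the end were 20 of the 111, against 2.22% of the others. Inside the gene beyond 1 kb of the start lay 6.31%, against 44.7%. Members are short, with a median length of 3.18 kb, against 17.2 kb for all protein-coding genes. Typically fewer bases of their body thus lie beyond 1 kb of the start. The part of gene length in these shares was not tested. Outside the gene and up to 100 kb from the start lay 12.6%, against 31.2%, and beyond 100 kb 20.7%, against 10.7%. By class, start peaks made up 42.9% of the mutant-specific, 52.0% of the shared and 38.9% of the wild-type-specific member peaks, against 16.5%, 14.7% and 9.89% of the others in the same order of classes.

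**Figure D3:**
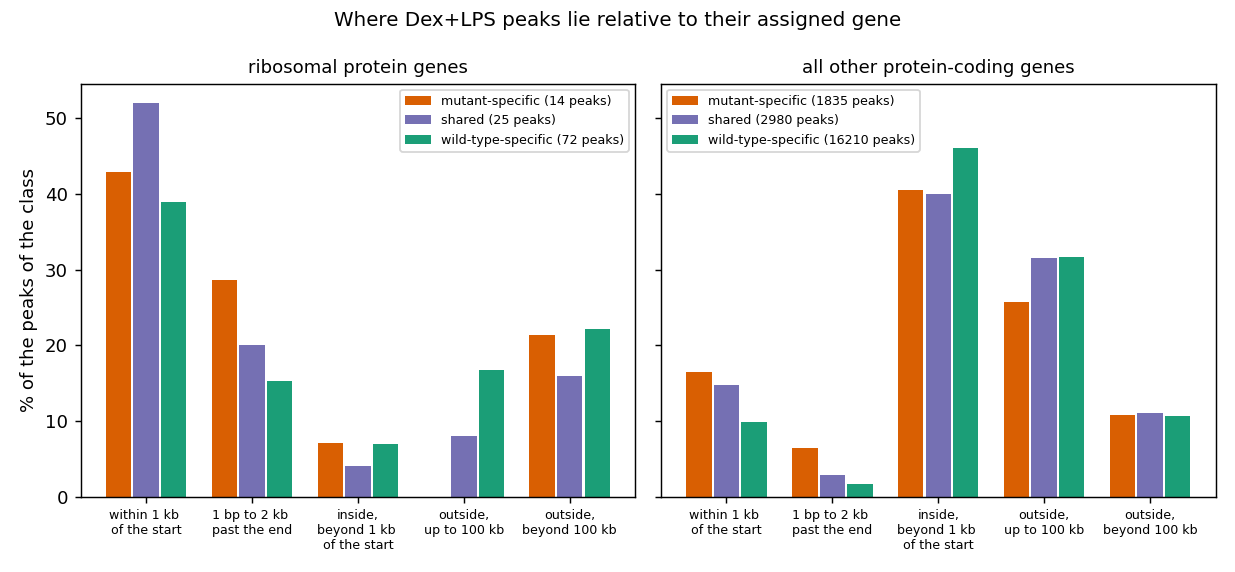
Percent of peaks by place relative to the assigned gene, for every class, with ribosomal protein genes to the left and all other protein-coding genes to the right. Start peaks make up 42.9, 52.0 and 38.9% of the member peaks in the mutant-specific, shared and wild-type-specific class.

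A few loci held many of the remaining peaks. Rps20 (chr4:3831584-3835655) had 6 peaks and none that was wild-type-specific: besides its start peaks at 203 bp (shared) and 717 bp (mutant-specific), it had a mutant-specific one 2801 bp inside, and shared ones at 3521, 4927 and 10839 bp. Its mutant-specific peaks lay 514 and 719 bp from shared ones. Rps12 had 11 peaks: 1 mutant-specific and 6 wild-type-specific ones, the shared one at its start, and 3 more shared ones 151899, 153069 and 163397 bp away. Rpl13, Rpl37a and Rplp1 each had 1 shared peak and 3 wild-type-specific ones.

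Most distant peaks belonged to 3 members. Of the 23 peaks beyond 100 kb, 19 belonged to Rps12, Rps29 and Rpl10l. Rps29, of the small subunit, had 7 peaks, all between 218 and 723 kb from its start, with the 3 mutant-specific ones at 217504, 449560 and 718982 bp and the other 4 wild-type-specific. Rpl10l, the testis relative of Rpl10, had a shared peak at 114679 bp and 5 wild-type-specific ones between 27.7 and 368 kb away. Such peaks were given to a gene over a long distance, and the lists do not tie them to these genes in any other way.

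Sharing between the genotypes was described in both directions. Of the 27 members in the mutant list, 22 were also in the wild-type list (81.5%, against 88.9% of the 2756 protein-coding genes in the mutant list). They made up 40.7% of the 54 members in the wild-type list, against 2451 of the 7219 protein-coding genes there. At the start, 13 members were in both lists, which is 72.2% of the mutant list's 18 and 31.7% of the wild-type list's 41, against 65.1% and 23.8% for all protein-coding genes. Counted as peaks, 64.1% of the mutant list's 39 member peaks were shared (exact 95% interval 47.2 to 78.8), against 61.9% of the others. Of the wild-type list's 97 member peaks 25.8% were shared (17.4 to 35.7), against 15.5% of the others (15.0 to 16.0). Among start peaks alone the share was 31.7% of 41 (18.1 to 48.1), against 21.4% of the others (19.7 to 23.3), and these 2 intervals overlap. All intervals cover counting error only, and peaks of 1 merged list are not replicates.

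The subunits had similar shares of genes with a peak of any class. Their shares of genes with a mutant-specific peak differed, but rested on few genes. Of 46 large-subunit genes 34 had a peak of any class (73.9%) and 27 a start peak (58.7%). Of 31 small-subunit genes 23 had a peak (74.2%) and 19 a start peak (61.3%). A mutant-specific peak was assigned to 3 large-subunit and 8 small-subunit genes. Of the 12 paralogs and related genes, 1 had a shared and 2 a wild-type-specific peak (8.33 and 16.7%, beside 9.37 and 30.6% of all protein-coding genes). None had a start peak, beside 9.90% of all protein-coding genes, and with 12 genes that share is too small for a count of 0 to stand apart from it.

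No Dex+LPS peak was assigned to 30 members. They include Rpl11, the partner of Rpl5 in binding 5S ribosomal RNA, Rps27a, made as a fusion with ubiquitin, and the core proteins Rpl8, Rpl6, Rpl15, Rps14, Rps15 and Rps16. A gene's territory, taken as its body and the nearer part of the gap to each neighbour, was of median 16.7 kb for these 30 and 9.03 kb for the 46 members with a start peak. The authors' annotation gave 3 further Dex+LPS peaks in a member's body or near its start to other genes: 1 in Rpl3 to the snoRNA Snord83b, 1 near Rps18 to Vps52 and 1 near Rpl4 to Zwilch. How reads that match several places were treated, which bears on genes with processed pseudogenes, was a point not given in the sources used here.

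Motifs of the start regions were looked for in 81 RefSeq windows of 69 members, from 250 bases before to 50 after the start, on both strands. Motifs could overlap. The ETS motif CCGGAAG was in 33.3% of member windows, against 11.6% of the 21263 windows of all protein-coding genes, and the YY1 motif AANATGGC in 21.0%, against 6.37%. The cyclic AMP element TGACGTCA was in 6.17%, against 2.23%, and the E-box CACGTG in 9.88%, against 7.84%. The AP-1 motif TGANTCA was in 2.47%, against 6.99%. A C at the start with 4 pyrimidines after it was in 18.5% of member windows, against 2.21%. A run of at least 5 pyrimidines over the start was in 28.4%, against 8.59%. Windows of members had a median of 58.0% G and C, against 56.3%.

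The receptor's full motif was rare in all windows, those of members included. Its palindrome (AGAACA, 3 bases of any kind and TGTTCT) was in 0 of 81 member windows and 2 of the 21263. A looser core of it was in 0 of the 81, against 0.442% of all windows, and the NF-kB motif (GGG, 2 bases of any kind and TTTCC) in 0 of the 81, against 1.6%. With 81 windows these shares are too small for counts of 0 to stand apart from them. A single arm of the palindrome, AGAACA, was in 14.8% of member windows, against 16.2%; it was in 17.1% of the 41 windows of members that had a start peak and 12.5% of the 40 windows of members that had none. The ETS motif was in 36.6% of the windows of members with a start peak and 30.0% of those of members without. In the same order, the YY1 motif was in 24.4 and 17.5% and the cyclic AMP element in 9.76 and 2.5%. The E-box was in 4.88 and 15.0% and the AP-1 motif in 2.44 and 2.5%. These differences rest on few windows and were not tested. A start peak here is one within 1 kb, so not every one of the 41 windows holds bases of the peak itself. A match is a description of the letters, and bases of the peaks beyond these windows were not analysed here.

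In the 7 stretches printed above, the motifs under the capitals differed from gene to gene; positions are those of the motif's first base, counted from the start. Rpl37a held the single arm AGAACA at -55 bp and Rps9 at 29 bp, both inside the peak. Rps2 and Rpl35 both held the ETS motif at -127 bp, inside the peak. In the mutant-specific examples the ETS motif lay outside the peak: at -157 and -75 bp in Rps18, at -214 bp in Rps26 and at 4 bp in Rpl26. The stretches hold only 72, 61 and 19 bases of these peaks, against 178 and 200 for Rps2 and Rpl35. The remaining bases of the peaks were not searched, so the examples cannot be compared on this. Cyclic AMP elements lay outside the peak at -134 bp in Rpl26 and at -57 bp in Rps9.

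Other genes of translation gave a mixed picture beside the ribosomal proteins. Translation factors start, extend and release the protein chain. Of 35 genes listed under this name, Tpt1 included, 11 had a start peak in the mutant list (31.4%, beside 3.22% of all protein-coding genes). In the wild-type list 17 had one (48.6%, beside 8.78%). These shares were above those of the ribosomal proteins in the mutant list and near them in the wild-type list. By class, 1 had a mutant-specific, 10 a shared and 7 a wild-type-specific start peak. Those were 2.86, 28.6 and 20.0%, beside 1.30, 2.00 and 7.00% of all protein-coding genes. Eef1a1, the elongation factor that brings transfer RNA to the ribosome, had 2 mutant-specific peaks at its start and 1 wild-type-specific peak, and Eif4g2 had 3 shared peaks. Eif3h, a subunit of an initiation factor, had 1 shared and 4 wild-type-specific peaks, and Tpt1 2 shared and 2 wild-type-specific.

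Mitochondrial ribosomal proteins, which build the separate ribosome of the mitochondrion, had start peaks at shares near those of all protein-coding genes. Of 78, none had a mutant-specific or shared start peak, beside 1.30 and 2.00% of all genes, and 4 had a wild-type-specific one (5.13%, beside 7.00%). They had a median territory of 15.7 kb, against 13.98 kb for all 89 cytosolic ones. Over all places Mrpl33 had 1 shared and 4 wild-type-specific peaks, Mrps30 2 shared and 2 wild-type-specific, and Mrpl1 3 wild-type-specific. Mrpl39 had 1 mutant-specific and 2 wild-type-specific ones, and Mrpl17 1 of each kind. Ribosome biogenesis genes, 39 in all, had 1 gene with a mutant-specific, 1 with a shared and 7 with a wild-type-specific start peak. The shares of this list were 2.56, 2.56 and 17.9%, beside 1.30, 2.00 and 7.00% of all genes. Among the ribosome biogenesis genes Wdr75 had 3 mutant-specific peaks, 1 shared and 5 wild-type-specific ones, and Ncl, which encodes nucleolin, 5 wild-type-specific ones. Ubtf had 1 mutant-specific and 3 wild-type-specific, Polr1a 2 wild-type-specific and Rrp9 1 mutant-specific.

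Of 26 genes of mTOR and S6 kinase signalling, 1 had a mutant-specific, 1 a shared and 4 a wild-type-specific start peak. Those were 3.85, 3.85 and 15.4%, beside 1.30, 2.00 and 7.00% of all protein-coding genes. Myc, which drives ribosome production, had 4 mutant-specific peaks, 2 of them at its start, and 1 wild-type-specific peak. Deptor, an inhibitor of mTOR, had 5 peaks, 1 of them mutant-specific and the other 4 wild-type-specific, while Rptor had 5 and Mtor 4 wild-type-specific ones. Of 15 snoRNA host genes 0 had a mutant-specific, 2 a shared (13.3%) and 5 a wild-type-specific start peak (33.3%), beside the same shares of all protein-coding genes. Snhg5 held 2 shared peaks, Snhg1 1 mutant-specific and 1 wild-type-specific, Snhg14 1 mutant-specific, and Snhg15 and Snhg17 2 wild-type-specific each. Among 7 other ribosome parts, a list that includes the member Rps27a, 3 had a wild-type-specific start peak (42.9%, beside 7.00%) and none another. Rack1, a scaffold on the small subunit, had 10 peaks, of which 4 were mutant-specific, 1 shared and 5 wild-type-specific. Naca and Nap1l1 had 1 wild-type-specific peak each.

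**Figure D4:**
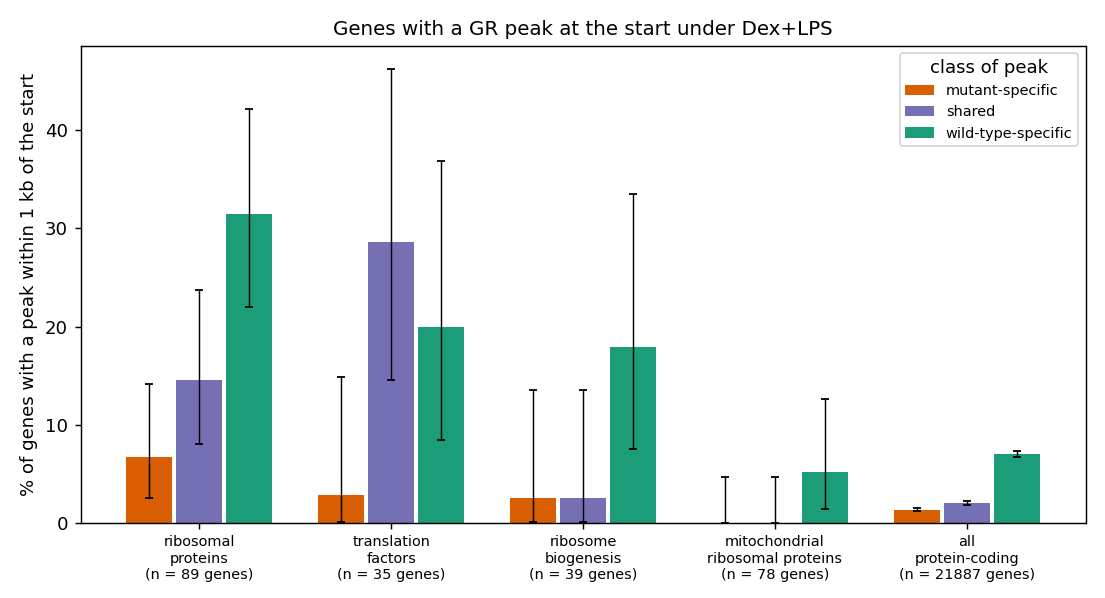
Percent of genes with a peak within 1 kb of the start, by class, for ribosomal proteins (89), translation factors (35), ribosome biogenesis (39), mitochondrial ribosomal proteins (78) and all protein-coding genes (21887), with exact 95% intervals that cover counting error only. Ribosomal proteins stand at 6.74, 14.6 and 31.5% for the mutant-specific, shared and wild-type-specific class, beside 1.30, 2.00 and 7.00% of all genes.

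For orientation, 13 of 15 fibroblast marker genes were in the mutant list (86.7%, beside 12.6% of all protein-coding genes). In the wild-type list were 15 (100.0%, beside 33.0%). Most peaks lay at Fbn1 (3 mutant-specific, 5 shared and 9 wild-type-specific), followed by the collagen gene Col3a1 (2, 5 and 7 in the same order). Postn had 0, 2 and 10, Col1a1 1, 1 and 7, Col1a2 3, 3 and 3, and Vim 2, 3 and 2. Of 10 macrophage marker genes 3 were in the mutant list (30.0%, beside 12.6%) and 2 in the wild-type list (20.0%, beside 33.0%). Cd68 had 2 mutant-specific peaks, Adgre1 1, Mrc1 1 shared and Spi1 1 wild-type-specific peak. A peak at a marker gene does not measure whether that cell type was present.

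Under Dex without LPS the start peaks were not seen. The mutant libraries had 53 and 60 peaks and none assigned to a member, against 412 and 854 peaks in the wild-type libraries, of which 1 and 5 were assigned to members. Those belonged to 1 and 3 members, beside 0.142 and 0.183% of protein-coding genes with a peak in the mutant libraries and 1.09 and 1.86% in the wild-type libraries. All 6 lay far from a start: Rpl10l at 27793 bp in the first wild-type library and at 177173 and 365033 bp in the second, Rps12 at 163775 bp, and Rps29 at 136548 and 748097 bp. All 6 were on chromosomes 10 and 12, and chromosomes 10 to 14 held 26.4 and 31.7% of the peaks in the mutant libraries, against 68.2 and 73.9% in the wild-type libraries, whose part in these counts was not tested. The Rps12 peak overlapped a shared and a wild-type-specific Dex+LPS peak, and the nearest Rpl10l peak a wild-type-specific one. No member had a start peak in any Dex library, but only 0, 1, 2 and 1 protein-coding genes of any kind had one there, so these lists are too short to compare starts. With 2 libraries against 2 an exact permutation test could not go below p = 0.33, and none was run.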

How the data were processed

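GR ChIP-seq was deposited for 13 libraries as peak lists. Per the file names, the authors merged the Dex+LPS libraries by genotype, removed knockout peaks and divided the remainder into a mutant-specific, a shared and a wild-type-specific list; the Dex libraries have 1 list each. The values are peak positions and distances to the gene start in base pairs, with no other score, per the file headers. Tools named in the submitters' processing notes, without roles, are MACS2 2.1.0, BWA 0.7.13 and Picard 1.119, with the mm10 build. Merging and assignment are not described in the sources used here.

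Each peak kept the gene and distance of the deposited annotation. Gene identifiers matched the RefSeq gene table for 99.9% of the mutant-specific and shared peaks and 18946 of 18953 wild-type-specific ones. A start peak has its centre within 1 kb of the assigned gene's start. Counts are set beside the same count over all protein-coding genes; no test was run. Exact 95% intervals are Clopper-Pearson and cover counting error only. Python 3.11.15, pandas 2.3.3, numpy 2.4.6, scipy 1.17.1 and matplotlib 3.10.9 were used. The lookup of nearby gene starts and gene bodies recovered 200 of 200 simulated peaks placed at them. That check does not cover the distances of the deposited annotation, on which the start and past-end counts rest.

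Members with a peak were named with full values where the peak was mutant-specific, shared, under Dex alone or at the start, and the others by counts; of each other list the 4 genes with most peaks were taken, and up to 4 with most mutant-specific ones. Members and lists were chosen with earlier results of these data known. Peaks past the gene end were added after seeing the data. Some genes are counted but their own values are not reported here.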

Additional observations from a re-analysis of the deposited data

How the results depend on the processing

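Several counts depended on how far from a gene a peak may lie. With peaks within 5 kb of the start alone, members with a mutant-specific peak fell to 7 and members with a wild-type Dex peak to 0. With peaks centred in the gene body they numbered 6 mutant-specific, 11 shared and 31 wild-type-specific, beside 3.22, 5.67 and 21.0% of all protein-coding genes. Without chromosomes 10 to 14 the mutant-specific count was 7. A start window of 200 bp gave 18 wild-type-specific members, and a window of 1 kb past the end, added after seeing the data, gave 1 mutant-specific and 5 wild-type-specific. Leaving out a Dex library gave 1 to 3 wild-type members and 0 in the mutant. Giving each peak to the nearest RefSeq start changed less: 9 mutant-specific, 19 shared and 42 wild-type-specific members. Of 40 alternatives, 30 stayed within 1.5 times the reported count or, for the shared percentage, within its 95% interval of 17.4 to 35.7%; the 4 alternatives for that percentage gave 26.2 to 31.7%. No paired analysis was possible because the results come from counts over merged lists and no test. A stricter peak threshold was not run, since the lists hold no scores. Depth is unknown, so a missing peak does not show that binding is absent.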
